A study of Mus musculus with 89 samples.

Results

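The comparison described here is the loss of Esrrb from mouse embryonic stem (ES) cells that already lacked Nr5a2, grown in FCS/LIF. It was made among Nr5a2-null cells, between 2 RNA-seq libraries of the state −E−N and 2 of the state −N. The 4 libraries were taken by their labels, from 20 RNA-seq libraries and 89 samples in the series, of which 69 were ChIP-seq samples. The series depleted Esrrb, Nr5a2 or both in ES cells kept in FCS/LIF (serum with the cytokine LIF) or in 2i/LIF (inhibitors of Mek and Gsk3 with LIF). All of its RNA-seq cells were EKOiE cells, in which the endogenous Esrrb gene is knocked out and an Esrrb transgene is expressed in the presence of doxycycline (Dox), so every library, controls included, lacked endogenous Esrrb. The −N libraries came from EKOiE NrKO cells, an EKOiE derivative in which Nr5a2 was also inactivated, cultured for 2 days with 1 µg/ml Dox. The −E−N libraries came from EKOiE NrKO cells cultured for 2 days without Dox. EKOiE cells with Dox (+E+N) and without it (−E), 2 libraries each in FCS/LIF, gave the same change in the presence of Nr5a2, and 3 libraries each of −N and −E−N gave the same comparison in 2i/LIF. Dox withdrawal and the loss of Esrrb cannot be told apart in this design. Which NrKO clone each library came from is not given by the labels. They only number the replicates, which the study describes as independent experiments, and p-values measure the spread between these libraries.

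Esrrb and Nr5a2 are orphan nuclear receptors of different subfamilies that bind nearly the same DNA element as monomers. Esrrb is part of the network of transcription factors, with Klf4, Tfcp2l1, Nanog, Oct4 and Sox2, that keeps ES cells in the naive state, the counterpart of the preimplantation epiblast. Cells leaving that state pass through a formative stage, marked by Otx2, Pou3f1 and Fgf5, before they form the germ layers.

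Total counts were 42025795 and 45443379 in the −N libraries and 36514172 and 38850631 in the −E−N libraries, and all mitochondrially encoded transcripts took 2.09 to 2.47% of them. Levels are given as CPM, the counts of a gene scaled to library size by TMM, and as TPM, scaled to transcript length as well, where different genes are set side by side. The replicates of each state differed by more than sampling noise (chi-square per degree of freedom 15.6 for −N and 10.2 for −E−N). The 10 ES cell identity markers were all above 1 TPM in each library, with summed levels of 8198 and 7088 TPM in −N and 5827 and 5337 TPM in −E−N. Of 11 markers of fibroblasts and feeder cells, 9 were tested and 4 were called higher (2 without −E−N replicate 1), with summed levels of 109.4 TPM in both −N libraries and 431.2 and 453.6 TPM in −E−N. Nearly all of that sum was Tagln, at 84.03 and 83.2 TPM in −N and 361 and 378 TPM in −E−N, and Acta2, at 18.4 and 18.9 against 61.2 and 67.1 TPM, both genes of the contractile actin cytoskeleton. The fibroblast collagens Col1a1 and Col1a2 and the proteoglycan Dcn stayed below 1 TPM in all 4 libraries. Of 8 blood-cell markers, the globin genes Hbb-bs and Hbb-bt were at 0 in every library. Cd68, a lysosomal gene, was the only one above 1 TPM and the only one called, at 8.33 and 7.71 TPM in −N and 12.6 and 14.5 TPM in −E−N, and with any single library left out it was not called.

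Esrrb (chr12:86361117-86521628 on mm10, here and below the whole gene) was measured at 221 and 264 CPM in −N and 31.7 and 29.4 CPM in −E−N, a log2 fold change of −2.99 (SE 0.141, adjusted p = 4.34e-06). The groups did not overlap, as was the case for 67.7% of all genes tested. The remaining reads are not separated into transgene and disrupted endogenous transcript. Nr5a2 (chr1:136842571-136960448) was at 27.5 and 25.98 CPM in −N and 10.4 and 9.34 CPM in −E−N, a log2 fold change of −1.44 (SE 0.0901, adjusted p = 1.77e-05). Transcript from the disrupted Nr5a2 alleles was thus counted in both states, and was lower in −E−N. In EKOiE cells, Dox withdrawal gave log2 fold changes of −2.18 for Esrrb and −0.98 for Nr5a2.

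Loss of Esrrb from Nr5a2-null cells changed 1573 of 15636 genes tested (10.1%) at an adjusted p under 0.01 by edgeR's quasi-likelihood test and a fold change over 1.5. Of these 1028 were higher in −E−N (6.57% of genes tested) and 545 were lower (3.49%). Rises and falls were of like size, with median log2 fold changes of 1.10 and −1.07. The falls were the deeper at the extreme, with 33 genes lower by over 8-fold against 18 higher by as much. The median log2 fold change of all genes tested was 0.02. For every called gene the −N and −E−N libraries did not overlap, which was also the case for 67.7% of all genes tested. In bulk RNA, a smaller share of cells expressing a gene and less RNA per cell cannot be told apart. The number of calls depended on having both replicates, with 677 calls without −E−N replicate 2, 988 without −E−N replicate 1, 1042 without −N replicate 1 and 1365 without −N replicate 2.

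**Figure D1:**
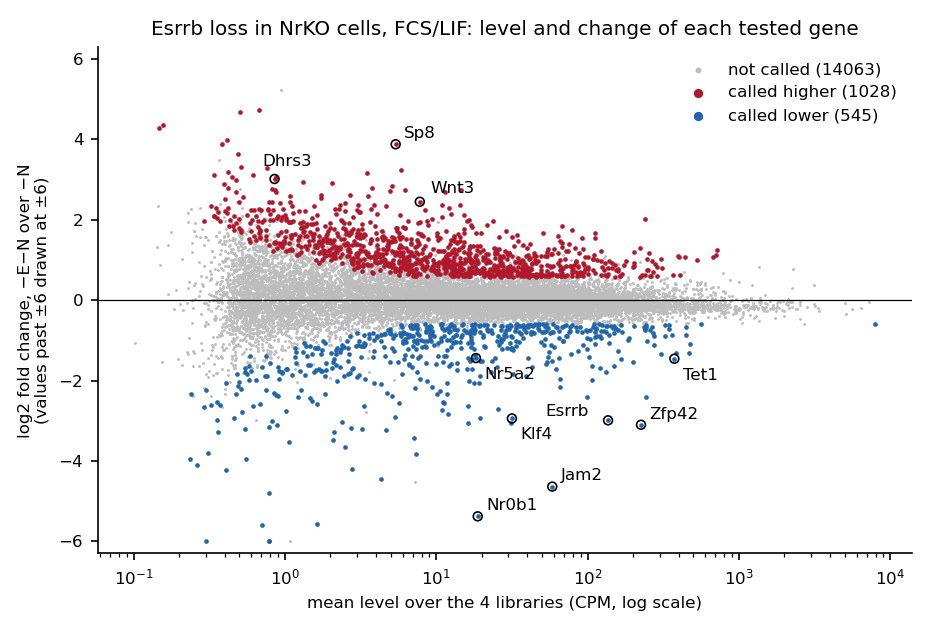
Log2 fold change of −E−N over −N in FCS/LIF (vertical axis) against the mean level over the 4 libraries in CPM (horizontal log axis) for the 15636 genes tested. Red points are the 1028 genes called higher, blue points the 545 called lower and grey points the rest, with Nr0b1 (−5.38), Jam2 (−4.64) and Sp8 (3.88) among the genes marked.

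Of the 12 naive pluripotency transcription factors, 10 fell and none rose, with a median log2 fold change of −1.70. Beside this list and those below, 6.57% of all genes tested were called higher and 3.49% lower. Nr0b1 (Dax1; chrX:86191764-86195947), an orphan nuclear receptor without a classical DNA-binding domain, fell furthest. It was at 41.1 and 32.4 CPM in −N and 0.878 and 0.881 CPM in −E−N, a log2 fold change of −5.38 (SE 0.186, adjusted p = 6.67e-07), and its −E−N libraries lay far below the −N libraries. Zfp42 (Rex1; chr8:43295063-43306980), the zinc finger gene widely used as a reporter of the naive state, was at 425 and 383 CPM in −N and 46.3 and 47.9 CPM in −E−N, a log2 fold change of −3.10 (SE 0.0924, adjusted p = 3.61e-07). Klf4, a Krüppel-like factor downstream of LIF, was at 58.1 and 53.8 CPM in −N and 6.97 and 7.57 CPM in −E−N, a log2 fold change of −2.94 (SE 0.0903, adjusted p = 3.61e-07). For both genes the replicates of each state lay close together and the states were well apart.

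A further group of members fell by more than 1.5 on the log2 scale. Tfcp2l1, a LIF target, went from 101 and 109 CPM to 27.1 and 27.2 CPM (log2 fold change −1.95, adjusted p = 1.06e-06). Klf2, the Krüppel-like factor tied to Mek inhibition, went from 93.96 and 94.6 CPM to 28.00 and 29.6 CPM (−1.71, adjusted p = 3.91e-06). Zfp57, which protects imprinted methylation, went from 186 and 179.8 CPM to 57.04 and 56.8 CPM (−1.68, adjusted p = 3.61e-07), and Prdm14, a PR-domain repressor, went from 3.78 and 4.03 CPM to 1.25 and 0.856 CPM (−1.89, adjusted p = 0.000993). In these 4 genes the replicates lay close together next to the gap between states. Smaller falls were seen for Nanog, from 192 and 190.4 CPM to 97.9 and 120.0 CPM (−0.81, adjusted p = 0.000949). Others were seen for the T-box factor Tbx3, from 25.8 and 33.8 CPM to 15.01 and 18.9 CPM (−0.81, adjusted p = 0.00895), and for the NF-κB cofactor Bcl3, from 24.2 and 21.1 CPM to 12.9 and 14.1 CPM (−0.74, adjusted p = 0.00321). Klf5 was at 148 and 145 CPM in −N and 119 and 110.3 CPM in −E−N, a log2 fold change of −0.36 (SE 0.0607, adjusted p = 0.00284) that was under the fold limit. Gbx2, a homeobox gene downstream of LIF, had a log2 fold change of −0.13 (SE 0.0885, adjusted p = 0.28). Ranges given with lost calls are log2 fold changes over the 4 fits that each left out 1 library. With −E−N replicate 2 left out, the call was lost for Prdm14 (−2.21 to −1.66). Tbx3 (−1.01 to −0.61) lost the call with either −E−N library or −N replicate 2 left out. Bcl3 (−0.84 to −0.64) was not called with either −E−N library or −N replicate 1 left out.

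**Figure D2:**
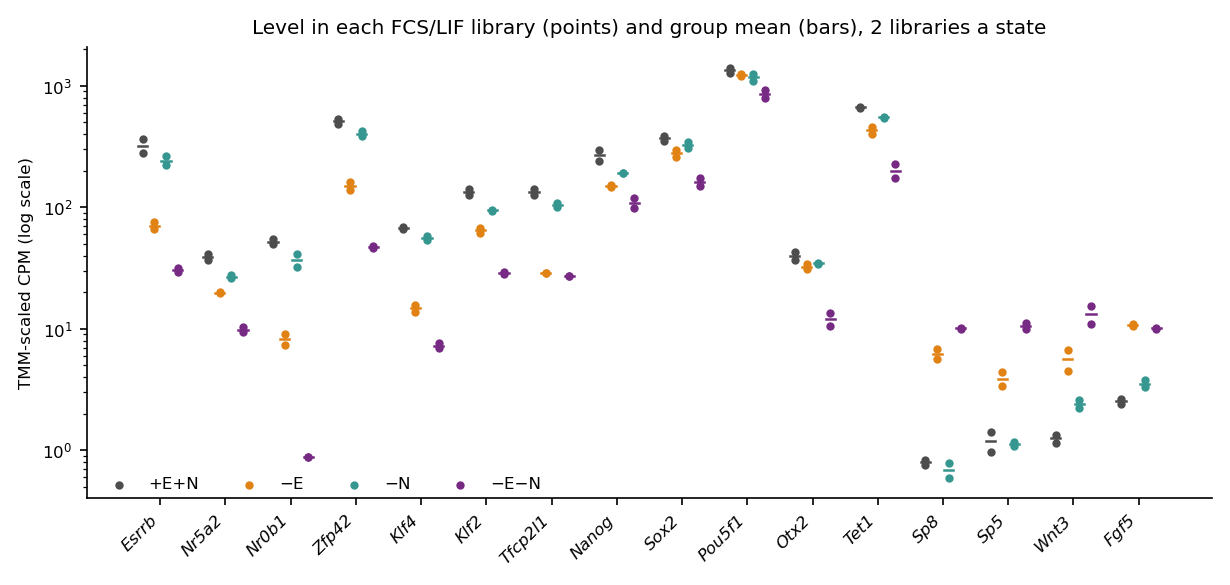
TMM-scaled CPM on a log axis for 16 genes in each of the 8 FCS/LIF libraries, with points for libraries and a short bar for the mean of the 2 libraries of a state. The −E−N points (purple) are the lowest for Nr0b1, Zfp42, Klf4, Klf2, Sox2, Otx2 and Tet1, and the highest for Sp8, Sp5 and Wnt3.

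The core and general pluripotency factors changed less. Of 10 tested, 2 were called lower and none higher, with a median log2 fold change of −0.39. Sox2 was at 347 and 311 CPM in −N and 175 and 149 CPM in −E−N, a log2 fold change of −1.02 (SE 0.0992, adjusted p = 0.000168), with the states apart. Utf1, a chromatin-associated ES cell gene, had a log2 fold change of −0.72 (SE 0.0748, adjusted p = 0.000241). Pou5f1 (Oct4) was at 1254 and 1101 CPM in −N and 916 and 797 CPM in −E−N, a log2 fold change of −0.46 (SE 0.0876, adjusted p = 0.00481), which passed the limit on p but not the limit on size. The same was the case for Sall1 (−0.46, adjusted p = 0.00267), Rif1 (−0.45, adjusted p = 0.000326), L1td1 (−0.34, adjusted p = 0.00244) and Zscan10 (−0.27, adjusted p = 0.00601). Sall4 (−0.06, adjusted p = 0.49) and the Wnt repressor Tcf7l1 (0.11, adjusted p = 0.296) passed neither.

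Among 20 other genes of the naive state, 14 fell and none rose, with a median of −1.53. Jam2, a junctional adhesion molecule, was at 118 and 107 CPM in −N and 4.44 and 4.58 CPM in −E−N, a log2 fold change of −4.64 (SE 0.0854, adjusted p = 2.54e-08). Tcl1, a co-activator of Akt, went from 29.2 and 26.3 CPM to 4.29 and 4.68 CPM (log2 fold change −2.63, adjusted p = 2.89e-06), and the 5-methylcytosine oxidase Tet2 went from 63.00 and 59.6 CPM to 17.1 and 16.2 CPM (−1.88, adjusted p = 3.66e-06). The −E−N libraries of all 3 genes lay below the −N libraries by a wide margin. The other falls, as log2 fold changes, were those of Khdc3 (−3.29), Mylpf (−1.73), Manba (−1.72), Nlrp4f (−1.70), Fbxo15 (−1.65), Tdh (−1.59), Spp1 (−1.53), Fgf4 (−1.53), Morc1 (−1.44), Ooep (−0.77) and Dppa3 (−0.63). Tdgf1, the Nodal co-receptor (−0.03), and Nlrp14 (−0.20) were close to their −N levels, and Dppa2, Dppa4, Dppa5a and Pecam1 lay between −0.56 and −0.41 without passing both limits.

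Esrrb and Nr5a2 share the element TCAAGGNCA, with TCAAGGTCA as the Esrrb form and TCAAGGCCA as the Nr5a2 form. The deposited expression tables hold no binding sites, so promoters from RefSeq (GRCm38.p6, 250 bases before to 50 after each start site) were searched for the exact letters on both strands, and 11200 of the genes tested matched a promoter by symbol. Either form was found in 9 of 387 called lower genes (2.33%), in 3 of 743 called higher genes (0.404%) and in 78 of 10070 genes not called (0.775%). Over all 32851 promoters of this length the share was 1.01%. The Esrrb form was in 2 of the called lower genes and in none of the called higher genes, and the Nr5a2 form was in 7 and 3. The windows below come from 4 genes that fell and 1 that rose. Apart from Zfp42 they were picked after their values were seen, and the capitals mark the element or its reverse complement. A match is a description of these letters and not a measured site.
Zfp42, chr8:43307194-43307252, minus strand: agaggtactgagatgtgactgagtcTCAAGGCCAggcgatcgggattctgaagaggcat
Elovl6, chr3:129532173-129532231, plus strand: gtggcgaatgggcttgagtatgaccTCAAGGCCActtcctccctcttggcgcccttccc
Msrb2, chr2:19371492-19371550, plus strand: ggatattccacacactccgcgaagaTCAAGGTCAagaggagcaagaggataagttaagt
Khdc3, chr9:73102165-73102223, plus strand: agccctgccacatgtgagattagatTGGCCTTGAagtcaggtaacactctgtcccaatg
Chst15, chr7:132317441-132317478, minus strand: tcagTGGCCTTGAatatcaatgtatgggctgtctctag

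The Msrb2 window holds the Esrrb form and the others the Nr5a2 form. The first base of the element is −218, −188, −119, −208 and −246 from the start site, in the order shown. Beside the fall of Zfp42 given above, Elovl6, a fatty acid elongase, fell from 161 ± 12.7 to 94.7 ± 1.61 CPM (SD, n = 2, log2 fold change −0.77, adjusted p = 7.13e-05). Msrb2, a methionine sulfoxide reductase, fell from 9.23 ± 0.975 to 5.64 ± 0.0694 CPM (SD, n = 2, log2 fold change −0.71, adjusted p = 0.00561). Khdc3, a gene of the subcortical maternal complex, fell from 3.83 ± 1.62 to 0.385 ± 0.131 CPM (SD, n = 2, log2 fold change −3.29, adjusted p = 0.000457). Chst15, a sulfotransferase of chondroitin sulfate, rose from 4.62 ± 1.02 to 20.6 ± 1.49 CPM (SD, n = 2, log2 fold change 2.15, adjusted p = 4.55e-05).

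Among the 12 largest falls, in genes averaging 100 counts or more, were Nr0b1, Jam2 and Zfp42. Rapgef4 (Epac2), an exchange factor for Rap activated by cyclic AMP, was at 9.26 and 7.19 CPM in −N and 0.426 and 0.327 CPM in −E−N, a log2 fold change of −4.44 (SE 0.235, adjusted p = 7.16e-06). Ly6a (Sca-1), a GPI-anchored surface protein, was at 5.41 and 5.19 CPM in −N and 0.186 and 0.377 CPM in −E−N, a log2 fold change of −4.21 (SE 0.280, adjusted p = 2.45e-05). St8sia1, the sialyltransferase that makes the ganglioside GD3, was at 13.96 and 13.4 CPM in −N and 0.932 and 0.981 CPM in −E−N, a log2 fold change of −3.83 (SE 0.174, adjusted p = 3.63e-06). These genes were expressed in both −N libraries and were below 1 CPM in every −E−N library. Lrrc34 (log2 fold change −3.42, adjusted p = 1.93e-05) and Zyg11a (−3.23, adjusted p = 2.9e-05) fell by over 3 on the log2 scale. So did the myoblast fusion peptide gene Mymx (−3.21, adjusted p = 0.000104), the actin-binding gene Nebl (−3.18, adjusted p = 6.05e-05) and the septin gene Sept1 (−3.06, adjusted p = 5.6e-06). Each of the falls named was called in all 4 fits that left out 1 library.

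Among genes averaging 100 counts or more, the largest rise was that of Sp8 (chr12:118846329-118852576), a zinc finger factor of the Sp family that is induced by Wnt signalling in the embryo. It was at 0.780 and 0.594 CPM in −N and 10.2 and 9.99 CPM in −E−N, a log2 fold change of 3.88 (SE 0.197, adjusted p = 5.8e-06). Sp5, a direct Wnt target of the same family, was at 1.17 and 1.08 CPM in −N and 9.90 and 11.2 CPM in −E−N, a log2 fold change of 3.23 (SE 0.219, adjusted p = 2.61e-05). Wnt3, the ligand required for the primitive streak, was at 2.22 and 2.60 CPM in −N and 10.97 and 15.4 CPM in −E−N, a log2 fold change of 2.45 (SE 0.238, adjusted p = 0.000166). The states did not overlap for any of the 3. Among the other 9 were the cardiac actin gene Actc1 (log2 fold change 3.16, adjusted p = 0.000242), the cytokine gene Il33 (2.84, adjusted p = 0.000125), coagulation factor F5 (2.80, adjusted p = 3.74e-05) and the matrix gene Efemp1 (2.75, adjusted p = 5.35e-05). To these came the hyaluronan synthase Has2 (2.73, adjusted p = 2.43e-05), the leukotriene receptor Cysltr1 (2.72, adjusted p = 9.81e-06), the GDNF receptor Gfra1 (2.69, adjusted p = 8.51e-05), kynureninase Kynu (2.62, adjusted p = 9.5e-05) and the synaptic vesicle gene Syt1 (2.59, adjusted p = 0.000393). Has2 went from 3.07 and 4.49 CPM to 23.8 and 26.7 CPM and Gfra1 from 2.51 and 3.59 CPM to 19.9 and 19.6 CPM. In each of the 12 genes both −E−N libraries were above both −N libraries. No called gene overlapped between the states, nor did 67.7% of all genes tested.

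Formative and primed epiblast genes went both ways. Of 22 tested, 7 were called higher and 5 lower, and the median was 0.22. Those that rose were Sox3 (log2 fold change 1.97, adjusted p = 9.51e-05), Nkx1-2 (1.80, adjusted p = 0.00567), Fgf5 (1.52, adjusted p = 8.82e-05) and the carbonic anhydrase Car4 (1.10, adjusted p = 0.0032). Sall2 (0.93, adjusted p = 0.000559), N-cadherin Cdh2 (0.86, adjusted p = 0.000576) and Pou3f1 (Oct6; 0.79, adjusted p = 0.000534) rose by less. Fgf5, the standard marker of the post-implantation epiblast, was at 3.78 and 3.30 CPM in −N and 10.01 and 10.2 CPM in −E−N, and Pou3f1 went from 55.9 and 62.7 CPM to 112 and 92.9 CPM. Otx2, the homeobox factor that drives the formative transition, fell. It was at 34.6 and 34.4 CPM in −N and 13.5 and 10.5 CPM in −E−N, a log2 fold change of −1.52 (SE 0.123, adjusted p = 6.47e-05). The states did not overlap, as was the case for 67.7% of all genes tested. Grhl3 (−1.18, adjusted p = 9.24e-05), the forkhead factor Foxd3 (−1.13, adjusted p = 0.000564), the Erk-responsive Ets factor Etv4 (−0.83, adjusted p = 0.00399) and the de novo DNA methyltransferase Dnmt3a (−0.72, adjusted p = 2.61e-05) fell as well.

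The 10 members not called lay between −0.57 (Etv5, adjusted p = 0.000374) and 0.29 (Lin28a, adjusted p = 0.0768). They were Dnmt3b (0.07), Lef1 (0.24), Sox4 (0.05), Zic2 (−0.06), Zic5 (−0.47), Grhl2 (0.21), Lin28b (0.27) and Tead2 (0.26) beside those named. With −E−N replicate 2 or either −N library left out, the call was lost for Nkx1-2 (1.44 to 2.04). Car4 (0.82 to 1.44) lost the call with −E−N replicate 2 left out. Etv4 (−1.06 to −0.56) was not called with either −E−N library or −N replicate 1 left out.

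Among markers of the germ layers and extraembryonic lineages, rises outnumbered falls in each list, against 1028 rises and 545 falls over all genes tested. Of 18 tested markers of primitive streak and mesoderm, 6 rose and 1 fell (median 0.66). Sp8, Sp5 and Wnt3 were the largest rises. The fall was that of the bHLH factor Tcf15, which went from 37.7 and 33.99 CPM to 13.6 and 13.04 CPM (log2 fold change −1.43, SE 0.0981, adjusted p = 2.73e-05). Of 16 tested neural and neural crest markers, 5 rose and 2 fell (median 0.996). The homeobox genes Msx1 (2.36, adjusted p = 6.76e-05) and Msx2 (1.52, adjusted p = 0.000664) rose. So did the intermediate filament gene Nes, which was at 51.8 and 61.7 CPM in −N and 164 and 167 CPM in −E−N, a log2 fold change of 1.55 (SE 0.0827, adjusted p = 7.59e-06). The other rises were Zic1 (2.26) and Sox1 (1.03), an early marker of the neural plate. Sox21 (−1.02, adjusted p = 0.00453) and Pax6 (−0.84, adjusted p = 0.00359) fell. With any single library left out, the call was lost for Sox21 (−1.22 to −0.89). Pax6 (−0.99 to −0.69) lost the call with either −E−N library or −N replicate 1 left out.

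Of 18 tested endoderm and primitive endoderm markers, 6 rose and none fell (median 0.84). Among them were the endocytic adaptor Dab2, from 12.2 and 13.8 CPM to 39.3 and 38.3 CPM (log2 fold change 1.58, SE 0.0976, adjusted p = 1.67e-05), the matrix gene Sparc (0.92, adjusted p = 0.000306) and the endocytic receptor Cubn (0.92, adjusted p = 0.00321). The receptor gene Pdgfra (0.92) and the basement membrane collagens Col4a1 (0.89) and Col4a2 (0.89) made up the rest. The defining factors Gata4 (0.48), Gata6 (−0.19) and Sox17 (0.71) were not called, and Afp, Ttr and Cer1 had too few counts to be tested. Of 15 trophectoderm markers, 5 rose and 1 fell (median 0.93). Dlx3 (1.50, adjusted p = 0.000326), Gata2, from 19.5 and 25.9 CPM to 49.7 and 70.3 CPM (1.40, adjusted p = 0.0006), and Gata3 (1.22, adjusted p = 0.000575) were the largest rises, before the simple-epithelium keratins Krt8 (1.13) and Krt18 (1.08). The Ap-2 factor Tfap2a (−0.88, adjusted p = 0.00157) fell. Of 18 tested genes of the two-cell-like state, 6 rose and none fell (median 1.305). The largest rises with enough counts were Usp17ld (1.99, adjusted p = 0.00173), Gm4340 (1.67, adjusted p = 0.00826) and the arginase gene Arg2 (1.60, adjusted p = 0.00753). The Usp17l genes and Gm4340 belong to families of near-identical copies, among which reads may have been split, so their values are uncertain. Cubn (0.85 to 1.005) was not called with either −E−N library or −N replicate 1 left out. With either −E−N library left out, the call was lost for Tfap2a (−0.94 to −0.84). Usp17ld (1.81 to 2.19) lost the call with −E−N replicate 2 or −N replicate 1 left out. Gm4340 (1.55 to 1.73) and Arg2 (1.31 to 1.94) were not called with any single library left out. Without −E−N replicate 1 there were 0 falls among neural genes and 1 rise among two-cell stage genes. There was 1 fall among neural genes, 2 rises among endoderm genes, 3 rises among trophectoderm genes and 0 rises among two-cell stage genes without −E−N replicate 2. Without −N replicate 1 there were 0 falls among neural genes, 2 rises among endoderm genes, 3 rises among trophectoderm genes and 0 rises among two-cell stage genes. There was 1 fall among neural genes and 1 rise among two-cell stage genes without −N replicate 2.

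**Figure D3:**
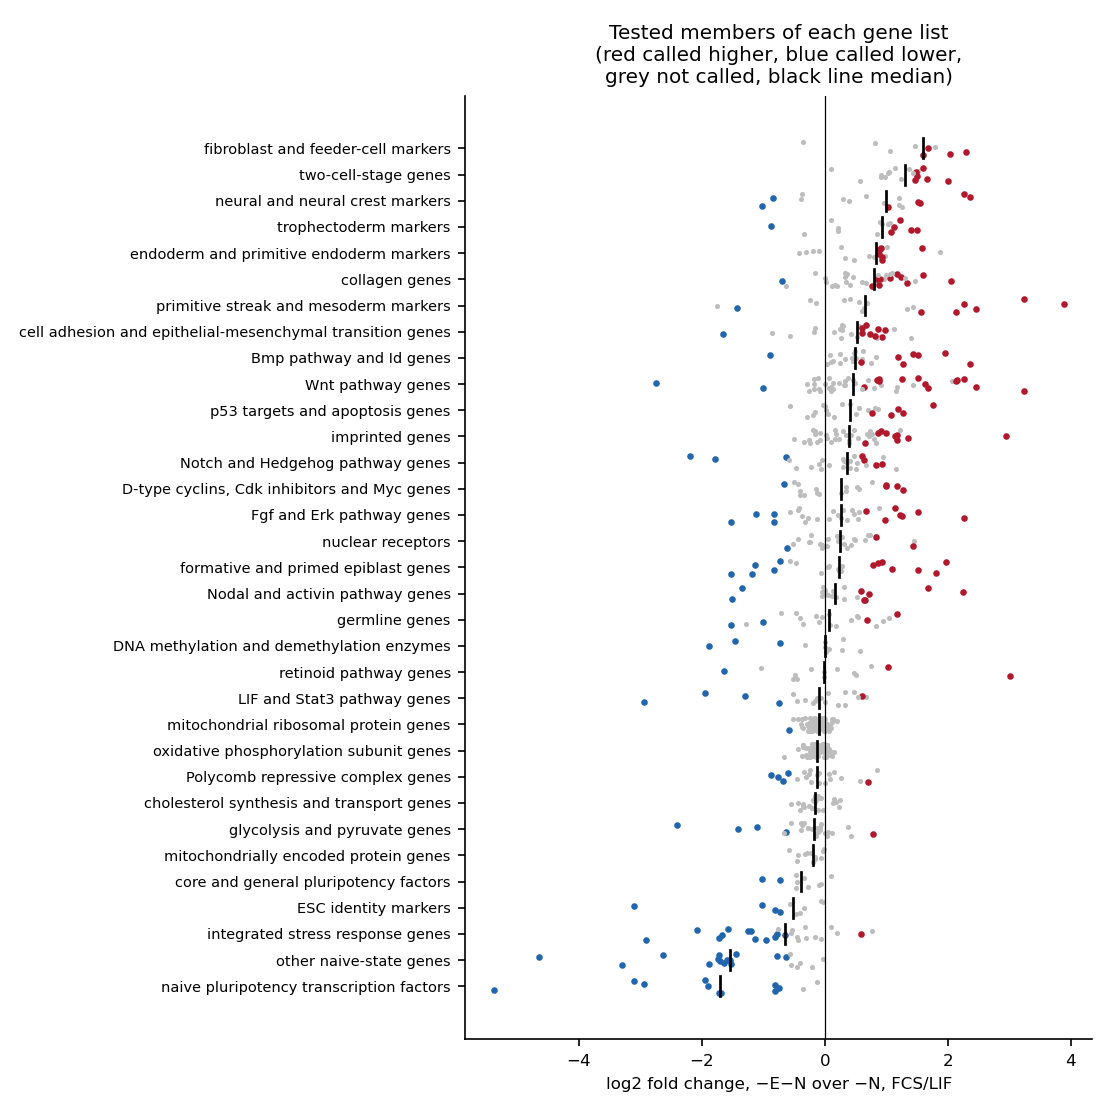
Log2 fold change of −E−N over −N in FCS/LIF (horizontal axis) for the tested members of 33 gene lists (vertical axis, ordered by median), with members called higher in red, called lower in blue, not called in grey and the median as a black line. The naive transcription factors (median −1.70), other naive-state genes (−1.53) and integrated stress response genes (−0.64) lie lowest, and the fibroblast markers (1.59) and two-cell-stage genes (1.305) highest.

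LIF signals through the receptor Lifr and its partner gp130 to Stat3. Of 20 genes of this pathway, 1 rose and 4 fell (median −0.10). Lifr was at 81.3 and 77.4 CPM in −N and 31.97 and 32.5 CPM in −E−N, a log2 fold change of −1.299 (SE 0.0666, adjusted p = 5.8e-06). The other falls were the targets Klf4, Tfcp2l1 and Bcl3 given above, and the kinase gene Pim1 rose (0.61, adjusted p = 0.000993). Of 45 tested Wnt pathway genes, 13 rose and 2 fell (median 0.46). Beside Sp5 and Wnt3, the ligand gene Wnt6 rose from 1.05 and 1.52 CPM to 5.48 and 6.90 CPM (log2 fold change 2.26, SE 0.259, adjusted p = 0.000396). The falls were the Wnt deacylase Notum, from 20.5 and 17.4 CPM to 2.34 and 3.30 CPM (−2.74, SE 0.168, adjusted p = 1.58e-05), and the receptor Fzd5, from 88.9 and 94.7 CPM to 43.6 and 47.9 CPM (−1.01, SE 0.0693, adjusted p = 2.8e-05). Notum is overlapped on the opposite strand by Notumos (−3.02, adjusted p = 9.51e-05). Whether the counting used strand is not given in the sources used here, so reads of this pair cannot be told apart.

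Among 29 tested Fgf and Erk pathway genes, 7 rose and 4 fell (median 0.26). Fgf4, the main Fgf ligand of ES cells, was at 86.3 and 74.7 CPM in −N and 30.4 and 25.4 CPM in −E−N, a log2 fold change of −1.53 (SE 0.121, adjusted p = 5.63e-05), with the states apart. Spry4, a feedback inhibitor induced by Erk, fell from 82.05 and 74.8 CPM to 39.2 and 32.9 CPM (−1.12, adjusted p = 4.74e-05), as did Etv4. Fgf5, the receptor Fgfr3 (1.26, adjusted p = 0.00109) and the binding protein Fgfbp1 (1.23, adjusted p = 0.000907) rose. Of 20 tested Nodal and activin pathway genes, 6 rose and 2 fell (median 0.16). The activin antagonist Fst (1.68, adjusted p = 0.000104) and the proprotein convertase Furin (0.71, adjusted p = 0.00867) rose, and so did Nodal itself (0.64), its antagonist Lefty1 (0.59) and the signal transducer Smad3 (0.66). A related convertase, Pcsk6 (−1.51, adjusted p = 7.29e-05), and the activin subunit Inhbb (−1.35, adjusted p = 0.00805) fell. Of 25 tested Bmp pathway and Id genes, 7 rose and 1 fell (median 0.50). The Bmp target Id1 was at 41.9 and 36.1 CPM in −N and 86.4 and 90.5 CPM in −E−N, a log2 fold change of 1.18 (SE 0.0963, adjusted p = 6.47e-05). The ligands Bmp2 (1.28) and Gdf6 (1.95) and the antagonist Grem1 (1.43) rose, and the ligand gene Bmp4 fell (−0.90, adjusted p = 0.00425).

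In the Notch and Hedgehog pathways 4 of 27 tested genes rose and 3 fell (median 0.36). The receptors diverged, with Notch3 (0.84, adjusted p = 0.000105) and Notch2 (0.64, adjusted p = 0.000138) higher and Notch4 (−2.19, adjusted p = 0.00012) lower. The Gli factors did too, with Gli3 (0.93, adjusted p = 0.000447) higher and Gli2, from 32.3 and 38.8 CPM to 9.48 and 11.1 CPM (−1.79, adjusted p = 1.56e-05), lower. Of 14 tested retinoid pathway genes, 2 rose and 1 fell (median −0.01). They were the retinal reductase Dhrs3, from 0.244 and 0.132 CPM to 1.36 and 1.69 CPM (3.02, adjusted p = 0.000365), the retinol dehydrogenase Rdh10 (1.03, adjusted p = 0.000314) and Stra8 (−1.63, adjusted p = 0.00722), which fell. With −E−N replicate 1 or −N replicate 2 left out, the call was lost for Pim1 (0.53 to 0.67). Fgfr3 (1.23 to 1.28) and Fgfbp1 (1.02 to 1.48) lost the call with −E−N replicate 2 left out. Furin (0.54 to 0.82) was not called with any single library left out. With −E−N replicate 1 or either −N library left out, the call was lost for Inhbb (−1.90 to −0.997). Bmp4 (−1.09 to −0.68) lost the call with either −E−N library or −N replicate 1 left out. Notch2 (0.58 to 0.65) was not called with −E−N replicate 1 left out. With either −E−N library or −N replicate 2 left out, the call was lost for Stra8 (−2.06 to −1.35). Without −E−N replicate 2 there were 7 rises among Wnt genes, 2 rises among Fgf and Erk genes, 2 falls among Fgf and Erk genes, 2 rises among Nodal genes and 3 rises among Bmp genes. There were 3 rises among Nodal genes, 1 fall among Nodal genes and 2 falls among retinoid genes without −N replicate 1. Without −E−N replicate 1 there was 1 fall among Nodal genes, 4 rises among Bmp genes and 2 rises among Notch and Hedgehog genes. There was 1 fall among Nodal genes without −N replicate 2.

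Among 11 enzymes of DNA methylation and demethylation, 3 fell and none rose (median 0.01). Tet1, a 5-methylcytosine oxidase highly expressed in ES cells, was at 558 and 540.1 CPM in −N and 226 and 175 CPM in −E−N, a log2 fold change of −1.46 (SE 0.111, adjusted p = 4.64e-05), with the states well apart. Tet2 and Dnmt3a were the other falls. Of 21 Polycomb genes, 1 rose and 4 fell (median −0.13). Jarid2, an accessory subunit of Polycomb repressive complex 2, was at 451 and 483 CPM in −N and 263 and 247 CPM in −E−N, a log2 fold change of −0.87 (SE 0.0639, adjusted p = 3.74e-05). The accessory genes Phf19 (−0.76, adjusted p = 0.00139) and Mtf2 (−0.68, adjusted p = 0.000211) fell, and the CpG island-binding Kdm2b rose (0.70, adjusted p = 7.04e-05). Of 40 tested imprinted genes, 9 rose and none fell (median 0.39). Cdkn1c (p57), an inhibitor of cyclin-dependent kinases, was at 50.3 and 57.1 CPM in −N and 100.3 and 142 CPM in −E−N, a log2 fold change of 1.17 (SE 0.155, adjusted p = 0.000796). Plagl1, from 8.84 and 10.8 CPM to 22.5 and 28.01 CPM (1.36, adjusted p = 0.000938), and Phlda2, from 15.6 and 15.2 CPM to 34.6 and 35.3 CPM (1.18, adjusted p = 0.000326), rose as well. The other rises were Slc22a3 (2.95), Dlk1 (1.14), Peg3 (0.996), Ndn (0.92), Nnat (0.86) and Gnas (0.65). H19 (0.83) and Igf2 (0.69) had positive log2 fold changes that were not called, with adjusted p of 0.0163 and 0.0456. Germline genes were even, 2 higher and 2 lower of 21 tested, with Taf7l (1.17, adjusted p = 0.00449) and Mael (0.69, adjusted p = 0.00481) up. The receptor gene Kit (−1.52, adjusted p = 2.17e-05) and Tuba3a (−1.01, adjusted p = 0.00266) were down. Phf19 (−0.81 to −0.72) lost the call with either −E−N library left out. Plagl1 (1.17 to 1.51) was not called with −E−N replicate 2 left out. With either −E−N library or −N replicate 1 left out, the call was lost for Taf7l (0.94 to 1.46). Mael (0.57 to 0.82) and Tuba3a (−1.19 to −0.79) lost the call with either −E−N library or −N replicate 2 left out. Without −E−N replicate 1 there were 2 falls among Polycomb genes and 1 fall among germline genes. There were 2 falls among Polycomb genes, 0 rises among germline genes and 1 fall among germline genes without −E−N replicate 2. Without −N replicate 1 there was 1 rise among germline genes. There was 1 rise among germline genes without −N replicate 2.

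The integrated stress response, through which Atf4 induces amino acid synthesis and transport, was represented by 25 genes, of which 12 fell and 1 rose (median −0.64). Trib3, a pseudokinase induced by Atf4, was at 24.6 and 28.6 CPM in −N and 7.43 and 8.68 CPM in −E−N, a log2 fold change of −1.72 (SE 0.157, adjusted p = 0.00012). Pck2 (−2.07, adjusted p = 0.000343), Nupr1 (−2.90, adjusted p = 0.000987) and the serine synthesis gene Psat1 (−1.13) also fell, and Cebpb rose (0.59, adjusted p = 0.000687). Atf4 mRNA had a log2 fold change of −0.44 that was under the fold limit, and Ddit3 (Chop) one of 0.11. Both −N libraries were above both −E−N libraries for Trib3, Pck2, Nupr1 and Psat1, and −N replicate 2 was well above replicate 1 for the latter 3. The states did not overlap for 67.7% of all genes tested. Of 28 genes of glycolysis and pyruvate metabolism, 4 fell and 1 rose (median −0.18). The lactate dehydrogenase subunit Ldhb was at 422 and 399 CPM in −N and 79.8 and 75.1 CPM in −E−N, a log2 fold change of −2.40 (SE 0.0593, adjusted p = 1.68e-07), while Ldha had one of −0.15. The phosphofructokinase Pfkp, from 137 and 160.2 CPM to 52.6 and 58.8 CPM (−1.41, adjusted p = 2.43e-05), the pyruvate dehydrogenase kinase Pdk1 (−1.11, adjusted p = 0.000112) and hexokinase Hk1 (−0.63) fell, and the regulatory gene Pfkfb3 rose (0.79, adjusted p = 0.000393).

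None of 76 subunits of oxidative phosphorylation was called (median −0.13), nor any of 13 mitochondrially encoded protein genes (median −0.19) or 24 genes of cholesterol synthesis and transport (median −0.16). Of 78 mitochondrial ribosomal protein genes, Mrps24 alone was called, with a log2 fold change of −0.59 (SE 0.0637, adjusted p = 0.000307) and a list median of −0.10. Of 21 p53 targets and apoptosis genes, 5 rose and none fell (median 0.42), with Cdkn1a (p21), from 49.01 and 60.6 CPM to 121 and 144 CPM (1.28, adjusted p = 0.00121), Bcl2 (1.19, adjusted p = 0.00518) and Trp53inp1, from 231 and 285 CPM to 543 and 542 CPM (1.07, adjusted p = 0.00199), as the largest. Among 19 cyclin, Cdk inhibitor and Myc genes, 4 rose and 1 fell (median 0.27). Cdk6 rose from 30.3 and 29.6 CPM to 58.02 and 61.6 CPM (1.000, adjusted p = 6.47e-05) and Mycn was at 329 and 322 CPM in −N and 215 and 198 CPM in −E−N, a log2 fold change of −0.66 (SE 0.0546, adjusted p = 6.97e-05). Cebpb (0.55 to 0.64) was not called with either −E−N library or −N replicate 2 left out. With −E−N replicate 1 or −N replicate 1 left out, the call was lost for Mrps24 (−0.64 to −0.57). Cdkn1a (1.13 to 1.44) lost the call with −E−N replicate 2 left out. Bcl2 (0.98 to 1.45) and Trp53inp1 (0.93 to 1.23) were not called with either −E−N library or −N replicate 1 left out. Without −E−N replicate 1 there was 1 rise among p53 target genes. There were 0 rises among p53 target genes and 2 rises among cyclin and Myc genes without −E−N replicate 2. Without −N replicate 1 there was 1 rise among p53 target genes. There were 3 rises among p53 target genes and 2 falls among cyclin and Myc genes without −N replicate 2.

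Of 25 tested genes of cell adhesion and epithelial-mesenchymal transition, 8 rose and 1 fell (median 0.52). Cdh3 (P-cadherin) was at 215 and 239 CPM in −N and 66.8 and 77.8 CPM in −E−N, a log2 fold change of −1.65 (SE 0.0822, adjusted p = 5.47e-06), the only fall. The tight junction gene Cldn7 (0.99, adjusted p = 0.000364), Cdh2 and the bHLH factor Twist1 (0.93, adjusted p = 0.00217) were the largest rises by the naming rule. Of 34 tested collagen genes, 10 rose and 1 fell (median 0.80). Col2a1 was at 9.11 and 9.94 CPM in −N and 25.2 and 23.00 CPM in −E−N, a log2 fold change of 1.34 (SE 0.0978, adjusted p = 3.74e-05). The fibrillar gene Col5a2 (1.24, adjusted p = 0.00415) and Col27a1 (1.06, adjusted p = 0.00541) rose too, while Col9a2 fell (−0.69, adjusted p = 0.00906). These rises went with those of 4 of 9 tested fibroblast markers (median 1.59), whose part in the collagen values was not tested. Col1a1, which is on both lists, was below 1 TPM in all libraries. Of 26 tested nuclear receptors other than the targeted genes and Nr0b1, 2 rose and 1 fell (median 0.25). That is 11.5% called, close to the 10.1% of all genes tested. The glucocorticoid receptor Nr3c1 (0.84, adjusted p = 0.00217) rose and the clock repressor Nr1d1 fell (−0.61, adjusted p = 0.00435). With either −E−N library or −N replicate 1 left out, the call was lost for Twist1 (0.84 to 1.04), Col27a1 (0.90 to 1.25), Col9a2 (−0.85 to −0.52) and Nr3c1 (0.72 to 0.97). Col5a2 (1.01 to 1.51) lost the call with either −E−N library or −N replicate 2 left out. Nr1d1 (−0.66 to −0.60) was not called with any single library left out. Without −E−N replicate 1 there were 4 rises among adhesion genes, 2 falls among adhesion genes, 2 rises among collagen genes, 1 rise among nuclear receptor genes and 2 rises among fibroblast marker genes. There were 4 rises among adhesion genes, 2 falls among adhesion genes, 2 rises among collagen genes and 0 rises among nuclear receptor genes without −E−N replicate 2. Without −N replicate 1 there were 5 rises among adhesion genes, 2 falls among adhesion genes, 3 rises among collagen genes and 1 rise among nuclear receptor genes. There were 4 rises among nuclear receptor genes without −N replicate 2.

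The same withdrawal of Dox in EKOiE cells, which keep Nr5a2, called 901 genes in the same fit (5.76%). The 2 comparisons share no library. Of the 1573 genes called in NrKO cells 741 (47.1%) were called in EKOiE cells, which is 82.2% of the 901. The sign was the same for 1559 of the 1573 (99.1%). Median log2 fold changes of the NrKO-called genes were 1.10 in NrKO and 0.80 in EKOiE cells for rises, and −1.07 and −0.78 for falls. Of these genes 80.2% were further from 0 in NrKO cells, whereas of the 901 genes called in EKOiE cells 49.3% were. Each set was chosen on one of the 2 changes. Over all genes tested, Pearson's r between the changes was 0.750, a description across genes that are not independent replicates.

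The difference between the changes was tested directly as an interaction. It passed an adjusted p of 0.01 for 5 of 15636 genes (0.032%), all more negative in NrKO cells. An unadjusted p under 0.05 was found for 1384 genes (8.85%). DESeq2 called 63 genes at 0.01, of which 9 were more positive in NrKO cells. For Nr0b1 the log2 fold change was −5.38 in NrKO against −2.66 in EKOiE cells, a difference of −2.72 (SE 0.244, adjusted p = 0.00572). In EKOiE cells it went from 54.4 and 49.8 CPM in +E+N to 9.08 and 7.38 CPM in −E, so its −E−N libraries were the lowest of the 8. Zfp42 changed by −3.10 against −1.77, a difference of −1.33 (SE 0.121, adjusted p = 0.00572), and Jam2 by −4.64 against −3.32, a difference of −1.31 (SE 0.111, adjusted p = 0.00519). In EKOiE cells Zfp42 went from 534 and 486 CPM in +E+N to 161 and 138 CPM in −E and Jam2 from 128 and 138 CPM in +E+N to 13.5 and 13.1 CPM in −E. Each of these genes fell in both lines and fell further in NrKO cells. Cell line and Nr5a2 status cannot be told apart here, and the Esrrb transcript itself also had the larger fall in NrKO cells. Enox1, a cell-surface oxidase gene, was at 46.4 and 41.9 CPM in −N and 7.03 and 6.39 CPM in −E−N (−2.72 against −1.08, difference −1.64, SE 0.113, adjusted p = 0.00274). Chchd10, a mitochondrial intermembrane space protein, was at 199 and 210.5 CPM in −N and 58.9 and 59.9 CPM in −E−N (−1.78 against −0.90, difference −0.89, SE 0.0736, adjusted p = 0.00519). The 5 calls were lost together, with 0 genes called, when any of the libraries −E−N replicate 1 or 2, −E replicate 1 or 2 or +E+N replicate 1 or 2 was left out (721 to 1628 genes at an unadjusted p under 0.05 by edgeR). There were 7 genes called without −N replicate 1 and 9 without −N replicate 2.

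Several genes on the lists had unlike values in the lines without passing this test at 0.01. Otx2 (−1.52 against −0.29, adjusted p of the difference 0.0488) and Mycn (−0.66 against 0.08, adjusted p of the difference 0.0126) fell in NrKO cells and were not called in EKOiE cells. Tet1 (−1.46 against −0.63, adjusted p of the difference 0.164), Jarid2 (−0.87 against −0.32, adjusted p of the difference 0.0986) and Sox2 (−1.02 against −0.42, adjusted p of the difference 0.247) had the lower value in NrKO cells. Dhrs3 (3.02 against 1.002, adjusted p of the difference 0.254) and Phlda2 (1.18 against 0.40, adjusted p of the difference 0.247) had the higher one. Tbx3 went the other way, with values of −0.81 against −1.84, adjusted p of the difference 0.281. Ldhb (−2.40 against −2.66, adjusted p of the difference 0.382) and the integrated stress response genes (list median −0.64 in NrKO and −0.91 in EKOiE cells, 12 and 13 called lower) had values no further from 0 in NrKO than in EKOiE cells.

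**Figure D4:**
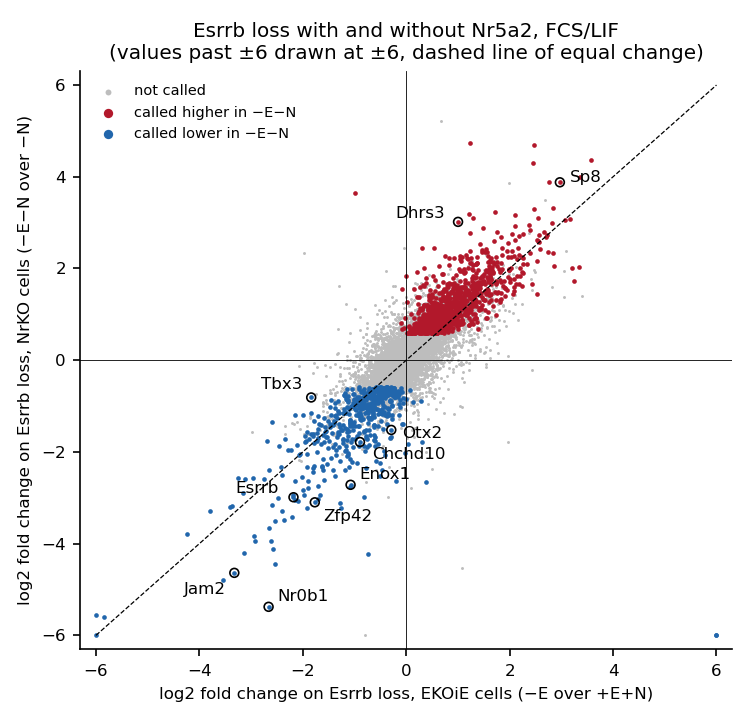
Log2 fold change on Esrrb loss in NrKO cells (−E−N over −N, vertical axis) against that in EKOiE cells (−E over +E+N, horizontal axis) for the 15636 genes tested in FCS/LIF, with genes called in NrKO cells in red (higher) and blue (lower) and a dashed line of equal change. Nr0b1, Zfp42, Enox1, Jam2 and Chchd10, the 5 genes called in the interaction, lie below the line, and Tbx3 (−0.81 against −1.84) lies above it.

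In 2i/LIF, loss of Esrrb from NrKO cells called 1350 of 16147 genes (8.36%) in a fit of all 20 libraries. That fit called 920 genes in FCS/LIF, and the 1573 calls came from the fit of the 8 FCS/LIF libraries. With 2 libraries a state in FCS/LIF and 3 in 2i/LIF, these counts do not rank the media. Of the 1573 genes called in FCS/LIF, 1320 (83.9%) had the same sign in 2i/LIF, 82.5% of the rises and 86.6% of the falls, with medians of 0.68 and −0.60 there. These genes were chosen on their change in FCS/LIF, so their medians in the media are not on equal terms. Pearson's r between the media across genes was 0.516, given as a description. The difference between media passed an adjusted p of 0.01 for 281 genes (1.74%), of which 172 (1.07%) were more positive and 109 (0.675%) more negative in FCS/LIF. Medium and culture batch cannot be told apart. Without 1 FCS/LIF library the count was 88 to 145, lowest without −E−N replicate 2, and without 2i/LIF −N replicate 2 it was 185.

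Nr0b1 fell in both media (−5.38 in FCS/LIF and −5.33 in 2i/LIF), with a difference of −0.05 (SE 0.851, adjusted p = 0.99), and so did Ldhb (−2.40 and −2.19, difference −0.21, SE 0.254, adjusted p = 0.736). Other naive factors differed between media, with Zfp42 at −3.10 and −0.90 (difference −2.20, SE 0.167, adjusted p = 2.16e-06). Klf2 was at −1.71 and −0.27 (difference −1.44, SE 0.178, adjusted p = 0.000195). Klf4 was at −2.94 and −1.39 (difference −1.55, SE 0.215, adjusted p = 0.000502). Each of these fell further in FCS/LIF. Among genes past that threshold that averaged 100 counts or more over the 10 NrKO libraries, the largest negative differences were those of Notumos, Mymx, Notum, H2-M5 and Ascl2. Rapgef4, past the threshold with fewer counts, was at −4.44 and −0.80 (difference −3.64, SE 0.647, adjusted p = 0.00338). Its mean level in 2i/LIF was low already in −N, at 1.22 CPM against 0.693 CPM in −E−N. Notum fell in FCS/LIF (−2.74) and had a value of 0.35 in 2i/LIF (difference −3.09, SE 0.354, adjusted p = 0.000119). Notumos (−3.02 and 0.55, difference −3.57, SE 0.382, adjusted p = 7.03e-05) shares its locus. Mymx was at −3.21 and 0.05 (difference −3.25, SE 0.396, adjusted p = 0.000169). The class I-like gene H2-M5 was at −3.05 and −0.40 (difference −2.65, SE 0.177, adjusted p = 5.72e-07). Ascl2, a trophoblast bHLH factor, was not called in FCS/LIF (−0.34) and was at 2.15 in 2i/LIF (difference −2.49, SE 0.419, adjusted p = 0.00222). Its mean levels in −N and −E−N were 1.92 and 8.54 CPM in 2i/LIF, below the 34.1 and 27.1 CPM in FCS/LIF. The Ascl2 difference lost its call with any single FCS/LIF library of −N or −E−N left out.

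Large positive differences were those of Slco2a1, Trim67, Tmc7 and Kbtbd11. Trim67, a ubiquitin ligase gene, rose in FCS/LIF (1.98) against −1.31 in 2i/LIF (difference 3.28, SE 0.441, adjusted p = 0.000404). The prostaglandin transporter gene Slco2a1 had values of 1.004 and −2.88 (difference 3.88, SE 0.556, adjusted p = 0.000726). Tmc7 had values of 0.52 and −2.53 (difference 3.05, SE 0.283, adjusted p = 2.23e-05) and Kbtbd11 of 0.36 and −2.64 (difference 3.00, SE 0.454, adjusted p = 0.000992). Tmc7 and Kbtbd11 were not called in FCS/LIF. The difference of Kbtbd11 between media lost its call with FCS/LIF −N replicate 1 left out. Pim1, a LIF target, was at 0.61 and −1.25 (difference 1.86, SE 0.147, adjusted p = 2.62e-06), and the mesoderm and Wnt-responsive gene Sp8 at 3.88 and 1.295 (difference 2.58, SE 0.271, adjusted p = 6.16e-05). With any single FCS/LIF library of −N or −E−N left out, the FCS/LIF call of Slco2a1 was lost (0.77 to 1.16). Its difference between media kept its call in those fits.

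**Figure D5:**
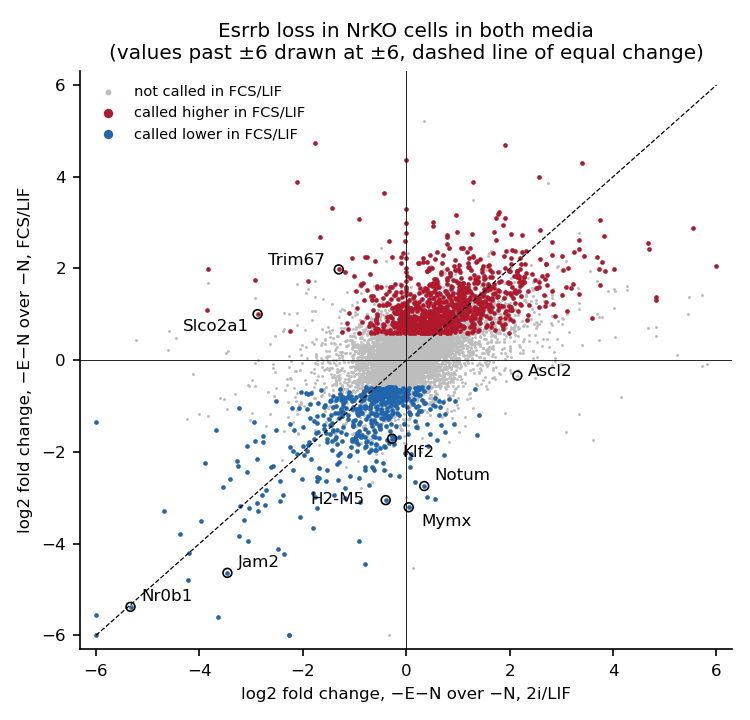
Log2 fold change of −E−N over −N in FCS/LIF (vertical axis, 2 libraries a state) against 2i/LIF (horizontal axis, 3 libraries a state), with genes called in FCS/LIF in red (higher) and blue (lower) and a dashed line of equal change. Nr0b1 lies on the line, Notum, Mymx and H2-M5 lie near 0 in 2i/LIF, and Trim67 and Slco2a1 have opposite signs in the media.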

How the data were processed

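RNA was poly-A selected and made into stranded, paired-end libraries. Per the study's methods the authors aligned reads to mm10 with STAR and estimated counts per gene with RSEM. The deposited expected counts were already whole numbers, and the deposited TPM values, scaled by the authors to gene length and depth, were used for comparing genes and for 2 alternatives. Per the labels, STAR, RSEM and Bowtie2 were used, and their versions are not given in the sources used here.

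Counts of the 8 FCS/LIF libraries, of 36514172 to 45443379 in total, were tested in one fit of 4 groups with edgeR 4.0.16 (R 4.3.3; TMM, glmQLFit, glmQLFTest) on the genes that reached 20 counts in both libraries of any state. Genes were called at a Benjamini-Hochberg adjusted p under 0.01 and a fold change over 1.5. The test of the interaction was (−E−N minus −N) minus (−E minus +E+N). The difference between media came from one fit of all 20 libraries with the same count filter. Neither had a limit on fold. SE is the absolute log2 fold change divided by the square root of the quasi-likelihood F statistic. It is unreliable for values near 0. The authors' methods use DESeq2, which was an alternative here (DESeq2 1.42.0), as was limma 3.58.1 on TPM values, log2-scaled with a pseudocount of 1 or 0.1. ERCC rows (92) were at 0 and were left out. The scripts were tested on simulated data.

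The members, gene lists and named genes were chosen with earlier results of these data known. Named were the targeted genes, the 12 largest rises and falls with a mean of at least 100 counts and no placeholder symbol, genes called in the interaction, the 5 largest called differences between media in each direction (mean of 100 counts over the 10 NrKO libraries), all members of the naive, core and formative lists, and up to 3 called rises and 3 called falls of each other list (mean of 100 counts, or 20 where fewer remained). A few of these are not reported here. Other genes given with values were chosen after their values were seen. Gene coordinates are those of GENCODE vM21 on mm10, matched by gene identifier for 54079 of 54238 rows.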

Additional observations from a re-analysis of the deposited data

Results flagged for a closer look

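The change on Esrrb loss differed between NrKO and EKOiE cells by a test of the difference itself (edgeR's quasi-likelihood test of the interaction, adjusted p under 0.01) for 5 genes. As log2 differences, NrKO minus EKOiE, these were Nr0b1 (−2.72), Jam2 (−1.31), Zfp42 (−1.33), Enox1 (−1.64) and Chchd10 (−0.89). All 5 were lower in both −E−N libraries than in both −N libraries, which does not bear on the difference between lines. The libraries of these states did not overlap for 67.7% of all genes tested. The 5 calls were lost in the fit of all 20 libraries, with limma on log2(TPM + 1), and with any single −E−N, −E or +E+N library left out. Those of Jam2 and Chchd10 were also lost with limma on log2(TPM + 0.1).

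The change in NrKO cells differed between FCS/LIF and 2i/LIF by the same kind of test for the genes named here, among the well-counted ones with the largest differences. More negative in FCS/LIF, as log2 differences, were Mymx (−3.25), Notumos (−3.57), Notum (−3.09), H2-M5 (−2.65) and Ascl2 (−2.49). More positive in FCS/LIF were Kbtbd11 (3.00), Tmc7 (3.05), Trim67 (3.28) and Slco2a1 (3.88). The Ascl2 difference was not called with limma on log2(TPM + 0.1) or with any single FCS/LIF library of −N or −E−N left out. That of Kbtbd11 was not called with FCS/LIF −N replicate 1 left out. Medium and culture batch cannot be told apart in these values. Groups of 2 and 3 libraries were too small for a test of single outlying libraries.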

How the results depend on the processing

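The count of 1573 genes called in −E−N against −N was 1126 to 1689 with DESeq2, DESeq2's size factors, filterByExpr, limma on TPM or the 4 libraries alone, and 677 to 1365 with 1 library left out (53.6 to 59.9% higher without −E−N replicate 1 or 2 or −N replicate 1). It moved to 2563 at an adjusted p under 0.05, 2556 with no filter on low counts, 2568 with no fold limit (55.7% higher), 890 with a fold over 2 and 920 in the fit of all 20 libraries (54.5% higher, against 65.4%). limma on log2(TPM + 0.1) moved the median log2 fold change of all genes to 0.12. The interaction was called for 63 genes with DESeq2 (9 more positive in NrKO cells), 16 at 0.05 and 242 with no filter (113 more positive). In the fit of all 20 libraries 0 were called (633 at an unadjusted p under 0.05). Limma on log2(TPM + 1) called 2 genes, with 0 of the 5 main calls kept. With log2(TPM + 0.1) it called 5 genes, with 3 of the main calls kept. The main calls were lost with most single libraries left out, as given above. The difference between media was called for 706 genes with DESeq2, 774 at 0.05, 926 with no filter (51.2% higher, against 61.2%), 467 with limma on log2(TPM + 1) (80.3% higher; 75.8% with 0.1) and 88 to 295 with 1 library left out. The causes were not tested. Of the named genes called in −E−N against −N none changed sign in an alternative that was run, whereas Sall4, Dnmt3b, Sox4 and Zic2, near 0 and not called, did in at least 1. Of 134 named genes called, 93 were called in all 4 fits with a library left out.

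Libraries share replicate numbers, which the main fit did not use as a block. Deviations from group means correlated at 0.199 between −N and −E−N and at 0.0916 to 0.484 over the 6 pairs of states. Adding a replicate block called 2176 genes (1542 higher), 40 in the interaction (7 more positive in NrKO cells) and 981 between media. It changed no call of a named gene in −E−N against −N. Under the block the rises went from 5 to 9 for trophectoderm, 6 to 11 for two-cell-stage, 2 to 5 for nuclear receptor, 9 to 14 for imprinted, 2 to 4 for germline and 5 to 8 for p53 target genes, and germline falls from 2 to 4. Single calls became 2 for mesoderm, retinoid and adhesion falls and for LIF, integrated stress response and Polycomb rises.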

Other observations

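Genes next in order in the interaction, past an adjusted p of 0.05 but not 0.01 by edgeR's quasi-likelihood test, were chosen here after their values were seen. All 16 gene models past that limit were more negative in NrKO cells by this test. With DESeq2 at 0.01, 9 of 63 calls were more positive. Beside the 5 genes given above, Otx2 and Mycn, and as log2 fold changes in NrKO against EKOiE cells, they were the F-box gene Fbxo15 (−1.65 against −0.95, adjusted p of the difference 0.0151), the threonine dehydrogenase Tdh (−1.59 against −0.91, adjusted p of the difference 0.0488), the uridine phosphorylase Upp1 (−2.40 against −1.62, adjusted p of the difference 0.0173), the actin regulator Enah (−1.08 against −0.53, adjusted p of the difference 0.042), Lrrc2 (−2.33 against −1.11, adjusted p of the difference 0.0126), Map7d3 (−0.92 against 0.13, adjusted p of the difference 0.042) and the zinc finger gene Zfp981 (−0.32 against 0.42, adjusted p of the difference 0.0297). The remaining pair, Gm13370 and Gm10240, are processed pseudogenes with the same counts in each of the 4 libraries, and no fold is given for them. Tdh and Upp1 fell in both lines, whereas Map7d3 and Zfp981 had values of opposite sign in the lines.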
